A study of Mus musculus with 4 samples.

Results

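The clustered protocadherins are cell adhesion genes that lie in 3 neighbouring groups, alpha, beta and gamma, on mouse chromosome 18. The 58 genes described here are all rows of the deposited count tables, of 49997 in all, whose symbols follow the naming of these clusters: 14 alpha, 22 beta and 22 gamma genes. Membership follows from the names alone, but these clusters were chosen with earlier results of these data known. All 58 have an entry in RefSeq for mouse GRCm38.p6. There the alpha cluster spans chromosome 18 from 36930285 to 37188897, the beta cluster from 37264998 to 37521419 and the gamma cluster from 37661775 to 37841873. Counts came from stranded RNA sequencing of 4 cultures of iMOP cells, which are immortalized multipotent otic progenitors, cells that can form inner ear cell types in culture, with a wild-type genotype per the labels. The 2 proliferating cultures grew in DMEM/F12 with B27, carbenicillin and basic FGF at 20 ng/ml, and the 2 cultures of iMOP-derived neurons in Neurobasal with N21, L-glutamine and the CDK2 inhibitor K03861 at 1 µM. The libraries of proliferating cells are called P1 and P2 here, and those of neurons N1 and N2, by replicate number. Both groups come from the same line, and P2 and N2 are both titled as set 2. The study is named for the chromatin remodeller CHD7 at boundaries between chromatin domains as neurons form.

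Each protein-coding gene of the clusters has its own promoter and variable exon. The exon encodes the extracellular domain, the transmembrane segment and part of the cytoplasmic tail. Alpha and gamma genes are spliced to a set of constant exons shared within their cluster, while beta genes have no such exons. Most of the promoters carry a conserved sequence element bound by CTCF, and cohesin brings selected promoters to distant enhancers. Single neurons thereby express different sets of the so-called alternate genes, whose proteins bind like with like between cells and let a neuron tell its own branches from those of others. The C-type genes (Pcdhac1, Pcdhac2, Pcdhgc3, Pcdhgc4 and Pcdhgc5) lie at the ends of the alpha and gamma clusters and are less subject to this random choice.

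Total counts were 7446361 to 14484011 per library, of which 2595578 to 3850766 remained without the 18S ribosomal RNA row. P2 stood apart, with 17762 genes detected against 20012 to 21637 in the other 3 libraries, so fold changes that it moves by over 1.5 times are also given without it. The labels were checked against marker genes fixed by name. The summed level of 10 neuronal markers was 159 and 347 CPM in P1 and P2, and 200.3 and 360 CPM in N1 and N2, so the groups overlapped. CPM here means counts scaled to a common library size, after TMM factors. Tubb3 alone was at 193 CPM in P2, against 19.1, 28.7 and 104 CPM in P1, N1 and N2. Both neuron libraries were higher for 2 of the 10 markers, Elavl4 and Map2, against 13.5% of all genes with at least 1 count. Both were lower for 0 of the 10, against 10.9%. The sum of 6 cycling cell markers overlapped as well, at 319 and 73.4 CPM in proliferating and 401 and 232 CPM in neuron libraries. For 8 glial markers the sums were 130.4 and 109.5 CPM in proliferating and 65.5 and 17.7 CPM in neuron libraries, and Gfap was at 1 and 2 counts in the neurons. Among the otic progenitor markers Pax2 and Pax8 were at 0 counts in all 4 libraries, and Sox2 had 216 to 402 counts. What part these differences have in the protocadherin values was not tested.

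Summed over all 58 genes, the clustered protocadherins had 1304 and 848 counts in P1 and P2, and 950 and 816 in N1 and N2. The corresponding levels were 107 and 114.5 CPM in proliferating cells and 79.7 and 82.95 CPM in neurons. The log2 ratio of neurons to proliferating cells was -0.44, but 0.25 when Pcdhgc3, the member with the most counts, was left out. The neuron sums lay below the proliferating sums, with means of 81.3 ± 2.31 and 110.7 ± 5.39 CPM (SD, n = 2 each). Within this total the clusters differed in opposite directions. The gamma cluster made up 67.4% and 81.1% of the protocadherin counts in P1 and P2 but 49.9% and 44.2% in N1 and N2. The alpha share was 5.83% (95% Wilson interval 4.68 to 7.23) and 4.48% (3.28 to 6.09) in proliferating cells, against 10.9% (9.12 to 13.1) and 15.6% (13.2 to 18.2) in neurons. The beta share was 26.8% and 14.4% in proliferating cells and 39.2% and 40.2% in neurons. All 3 shares separated the groups without overlap, but the shares of a library depend on each other. Pcdhgc3 alone held 42.1% and 77.1% of the counts in P1 and P2, and 31.2% and 39.6% in N1 and N2. With its counts left out, each of the 3 shares overlapped between the groups. The sums have no test, since the clusters were chosen with results of these data known. Intervals cover counting error only and take each count as a separate read. In bulk RNA, fewer expressing cells cannot be told apart from less RNA per cell.

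**Figure D1:**
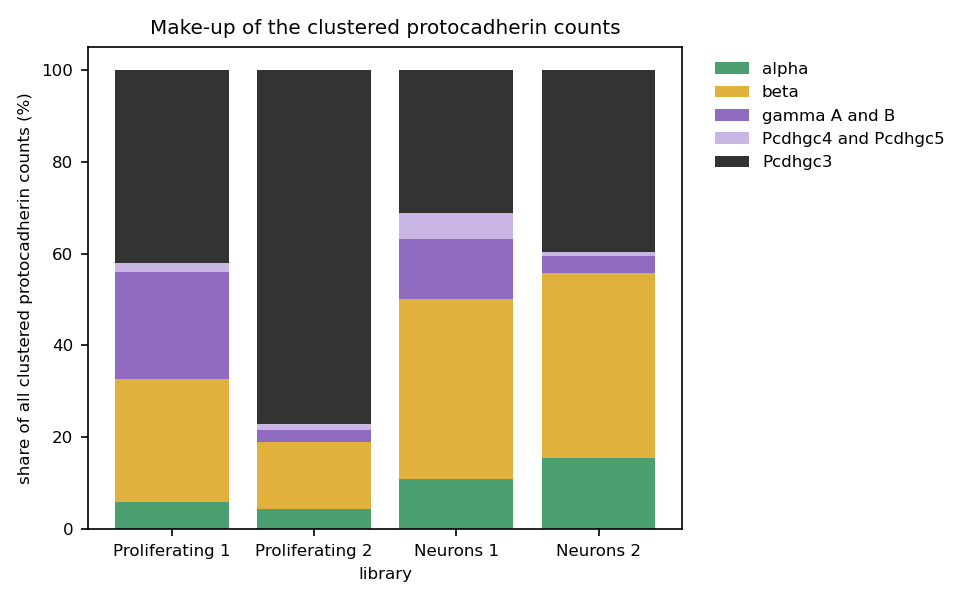
Share of all clustered protocadherin counts (y axis, percent) held by the alpha and beta clusters, the gamma A and B genes, Pcdhgc4 with Pcdhgc5, and Pcdhgc3, in each of the 4 libraries (x axis). Pcdhgc3 fills 77.1% of P2 and 31.2% to 42.1% of the other libraries, and the alpha share is higher in both neuron libraries.

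In the edgeR quasi-likelihood test across 12783 genes, 16 members passed the filter on low counts, and neither direction held a called member (0 higher, 0 lower; adjusted p-value below 0.05). The background was 0.00% of genes in each direction. DESeq2, which gave no adjusted p-value for 1 member, also called 0 members, where it called 0.0957% of 12535 genes higher and 0.375% lower. With limma 0 members were called as well, on log2(RPKM + 1) with 0.00% of genes higher and 0.00782% lower and on log2(RPKM + 0.1) with 0.00% and 0.0156%. The lowest adjusted p-value of a member in the edgeR fit was 0.9998. At an unadjusted p-value under 0.05 edgeR gave 1 member lower (background 2.51%) and 1 higher (0.915%). Blocking on the replicate number gave again 1 lower (background 3.48%) and 1 higher (2.70%). With the block 0 were called (0.00% of all genes higher, 0.0235% lower). The higher member was Pcdha9 in each fit. It passed the filter on low counts through the neuron libraries alone, so nothing is read from the count of higher members. The median log2 fold change, neurons minus proliferating, was 0.063 over the 16 members, with 12 positive and 4 negative, and 0.024 over all tested genes. Scaled by library size alone, which moved the median of all genes by -0.29, the same 16 had a median of -0.07, with 5 positive and 11 negative. Without P2 the median of these 16 was -0.096, with 6 positive and 10 negative. The 16 members tested with all libraries were 4 alpha, 9 beta and 3 gamma genes. The other 42 members had too few counts in too few libraries to be tested, and 3 of them, Pcdha4, Pcdha7 and Pcdhb1, had 0 counts in every library. A count of 0 allows up to 3 counts per library, or 0.246 to 0.405 CPM. Of all 58 members, 14 had both neuron libraries above both proliferating libraries, 5 alpha and 9 beta genes, where 13.5% of the 25859 genes with at least 1 count did. In the other direction there were 4, namely Pcdhac2, Pcdhga1, Pcdhga6 and Pcdhgc3 (background 10.9%).

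**Figure D2:**
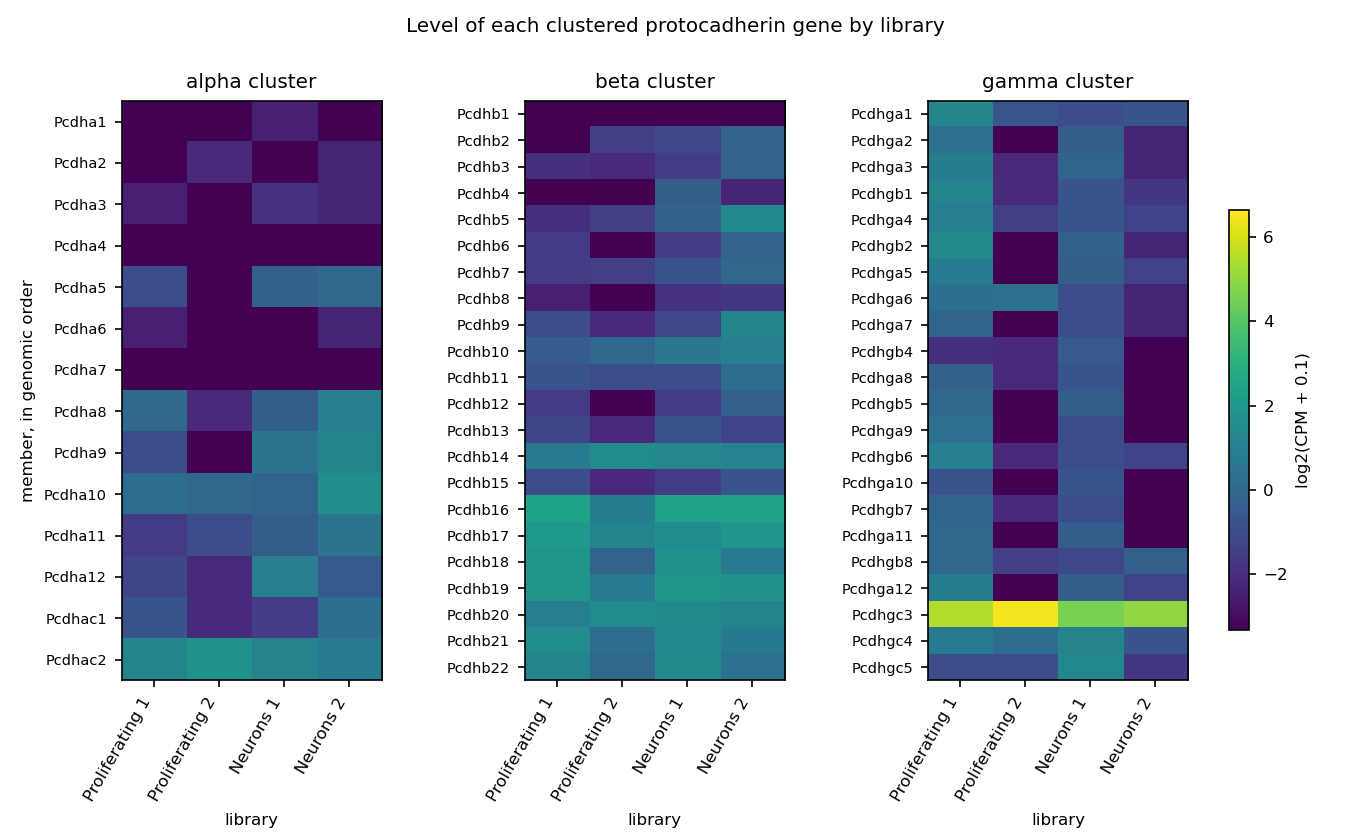
Level of each member as log2(CPM + 0.1) (colour) by library (x axis), with members in genomic order from top to bottom (y axis) and 1 panel per cluster. Pcdhgc3 stands out in all 4 libraries, the gamma A and B genes are brightest in P1, and the beta genes from Pcdhb14 on are mostly brighter than those before them.

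Pcdhgc3 was the dominant member. It encodes a C-type gamma protocadherin found in many cell types beyond neurons. It had 549 and 654 counts in P1 and P2, and 296 and 323 in N1 and N2. Scaled for library size, this was 44.98 and 88.3 CPM in P1 and P2, and 24.8 and 32.8 CPM in N1 and N2. Both neuron libraries were lower than both proliferating libraries. The means were 66.6 ± 30.6 and 28.8 ± 5.66 CPM (SD, n = 2 each), and the log2 fold change was -1.21 ± 0.51 (SE). In the edgeR test its unadjusted p-value was 0.0496 and its adjusted p-value 0.9998, so it was not called. Its log2 fold change was -0.62 without P2 and -1.65 without P1, both below 0. On the authors' RPKM scale it stood at 15.7 and 13.4 in proliferating cells and 6.67 and 4.76 in neurons. RPKM was deposited relative to totals that include the 18S row, whose share was 53.3% and 75.0% in P1 and P2 and 59.4% and 76.1% in the neuron replicates, so levels of the replicate 2 libraries are lower on that scale.

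Per kilobase of variable exon, Pcdhgc3 had a mean level of 18.6 CPM over the 4 libraries, and the next member, Pcdhb17, had 0.949 CPM. The value of Pcdhgc3 takes all its counts to lie in the variable exon, which was not tested. Pcdhgc3 held 62.46% of the gamma counts in P1 (95% Wilson interval 59.2 to 65.6) and 62.45% in N1 (58.0 to 66.7). It held 95.1% in P2 (93.2 to 96.4) and 89.5% in N2 (85.9 to 92.2). Its share of the cluster thus followed the replicate number and not the group. The other gamma C-type genes had far fewer counts. Pcdhgc4, which is needed for the survival of neurons in the developing mouse, had 20 and 8 counts in P1 and P2 and 25 and 5 in N1 and N2, with overlapping groups. The log2 fold change was -0.06 ± 0.88 (SE), and 0.61 without N2, -1.44 without N1, -0.29 without P2 and 0.26 without P1. Pcdhgc5, a C-type gene of maturing brain, had 5 and 3 counts in proliferating cells and 29 and 2 counts in neurons. The 29 counts of N1 stand alone, and the gene was too low to be tested.

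The remaining 19 gamma genes belong to the A and B subfamilies of alternate genes. RefSeq lists 1 of them, Pcdhgb8, as a transcribed pseudogene. The 19 genes differed between the replicates more than between the groups. Their summed counts were 305 in P1, 23 in P2, 124 in N1 and 31 in N2. The summed level was 25.0 and 3.11 CPM in P1 and P2, and 10.4 and 3.15 CPM in N1 and N2. P1 was thus 8.05-fold above P2, while the log2 ratio of neurons to proliferating cells was -1.26 in the replicate 1 pair (95% counting interval -1.58 to -0.96) and 0.02 in the replicate 2 pair (-0.80 to 0.87). The ratio of the group means was -1.05 on the log2 scale, and without P1 it turned to 1.13. Without P2 it was -1.88.

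Nearly every gene of both subfamilies showed this pattern. Counts per gene ran from 2 to 30 with a median of 15 in P1, from 0 to 9 with a median of 1 in P2, from 4 to 10 with a median of 6 in N1 and from 0 to 7 with a median of 1 in N2. All 19 genes had at least 1 count in both replicate 1 libraries, while 10 did in P2 and 12 in N2. Thinning every library to the 2595578 counts that P2 had without the 18S row left an expected 18.9 of the 19 genes in P1 and 10.6 in N2. Other properties of the libraries were not matched. Of the 19 genes, 18 were lower in P2 than in P1, where 51.7% of all genes with at least 1 count were. Of the same 19, 17 were lower in N1 than in P1, against 44.6% of all genes. Pcdhga1, the first gene of the array, had 28 and 4 counts in P1 and P2 and 5 counts in each neuron library. Pcdhgb2 had 30, 0, 9 and 1 counts in the same order. Pcdhga6 had the most counts of the 19 in P2, with 14 and 9 counts in proliferating cells and 5 and 1 in neurons.

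The A and B genes were also evenly filled in N1. The variance of their counts over the 19 genes was 0.432 times their mean there, against 3.79 and 3.82 in P1 and P2 and 2.33 in N2. Independent counts around a common mean have a ratio of about 1. Pcdhga3 was the single A or B gene with enough counts for the test, with 21 and 1 counts in P1 and P2 and 10 and 1 in N1 and N2. Its log2 fold change of -0.997 had an SE of 1.35, and the groups overlapped. With 1 library left out it ran from -3.12 without N1 to -0.20 without N2, and it was -1.79 without P2.

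**Figure D3:**
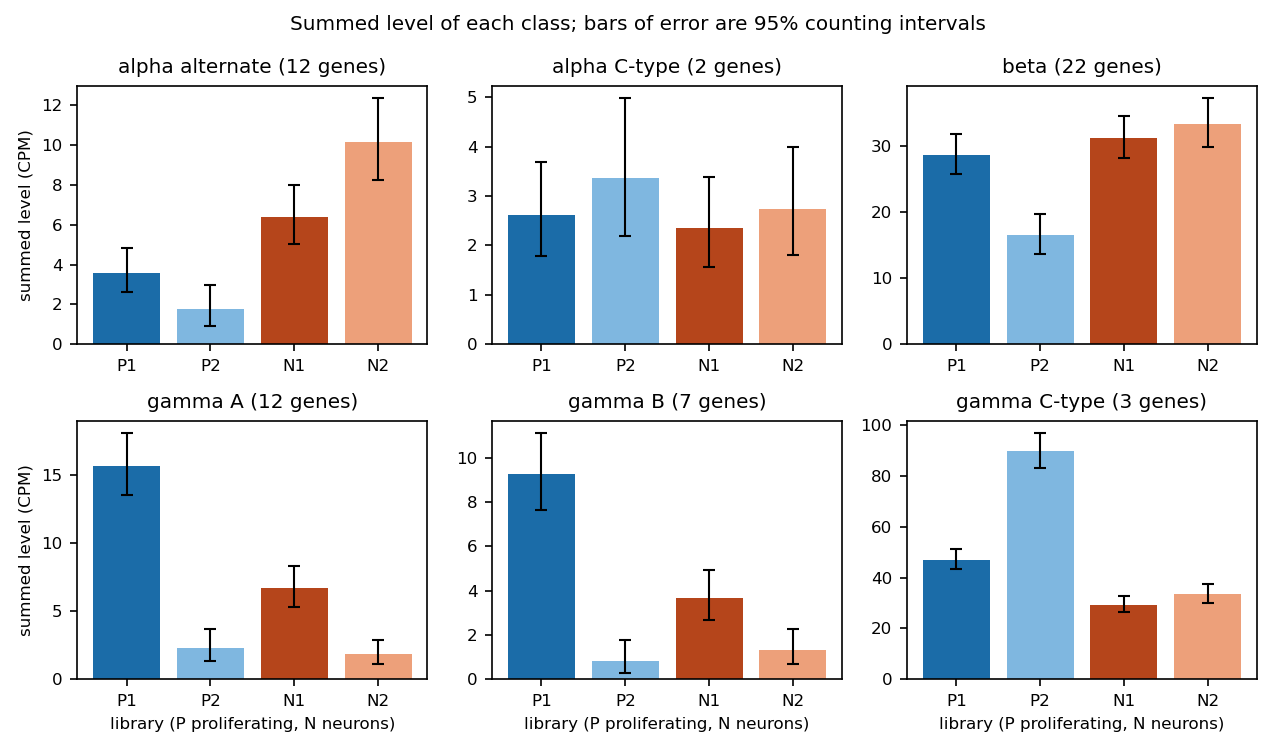
Summed level in CPM (y axis, from 0 and with its own scale in each panel) of the 6 classes of members in proliferating (P1, P2) and neuron (N1, N2) libraries (x axis), with 95% counting intervals. The alpha alternate sums are higher in both neuron libraries, and the gamma C-type sums, mostly Pcdhgc3, are lower in both. The gamma A and gamma B sums are highest in P1.

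The alpha cluster was higher in both neuron libraries. Its summed counts were 76 and 38 in P1 and P2 and 104 and 127 in N1 and N2. Proliferating cells averaged 5.68 ± 0.776 CPM and neurons 10.8 ± 2.96 CPM (SD, n = 2 each), a log2 ratio of 0.93, with no overlap. The pair ratios were 0.49 (95% counting interval 0.046 to 0.93) for replicate 1 and 1.33 (0.80 to 1.90) for replicate 2. The difference lay in the 12 alternate genes Pcdha1 to Pcdha12. Their sums were 3.61 and 1.75 CPM in the proliferating libraries and 6.38 and 10.2 CPM in the neuron libraries, with pair log2 ratios of 0.82 (0.27 to 1.39) and 2.53 (1.70 to 3.49). The summed level of the 2 C-type genes did not show it. Their sums were 2.62 and 3.38 CPM in proliferating cells and 2.35 and 2.75 CPM in neurons, with pair ratios of -0.16 (-0.94 to 0.62) and -0.30 (-1.14 to 0.55), both intervals including 0. Pcdhac2 held 59.3% to 96.0% of the C-type counts, so this sum says little about Pcdhac1. Pcdhac1 alone had a log2 ratio of 1.13, at 1 to 11 counts per library and with overlapping groups. The ratio of the alpha cluster was 0.62 without N2 and 1.19 without N1.

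Pcdha9 showed the largest fitted difference of the tested alpha genes. It had 5 and 0 counts in P1 and P2, and 16 and 21 in N1 and N2. Both neuron libraries were higher. Levels were 0.205 ± 0.29 and 1.74 ± 0.56 CPM (SD, n = 2 each), and the log2 fold change was 2.83 ± 1.17 (SE), an edgeR unadjusted p-value of 0.0444 and an adjusted p-value of 0.9998. It passed the filter on low counts through the neuron libraries alone, the group in which it was high, so its p-value is conditioned on that difference. Without P1 the remaining proliferating library is at 0, so the fold is then not bounded, and without P2 it was 2.07. Pcdha12 had 4 and 1 counts in proliferating cells and 22 and 6 in neurons, again without overlap, but was too low to be tested. The same holds for Pcdha5 with 5 and 0 against 9 and 9 counts, Pcdha11 with 3 and 3 against 8 and 13, and Pcdha3 with 1 and 0 against 2 and 1.

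Pcdha10 and Pcdha8 had their highest counts in N2. Pcdha10 had 13 and 7 counts in P1 and P2, and 10 and 29 in N1 and N2. Its log2 fold change was 0.89 ± 0.85 (SE), and -0.26 without N2. Pcdha8 had 12 and 1 counts in proliferating cells and 8 and 19 in neurons, with a log2 fold change of 1.10 ± 1.09 (SE). It was 0.41 without P2 and 0.19 without N2, but 3.10 without P1. Pcdhac2, the C-type gene next to the alpha constant exons, had 26 and 24 counts in proliferating cells and 25 and 16 in neurons. Scaled for library size, this was 2.13 and 3.24 CPM in P1 and P2 and 2.10 and 1.63 CPM in N1 and N2, highest in P2. Its log2 fold change was -0.51 ± 0.62 (SE), and -0.17 without P2. Pcdhac1 had 6 and 1 counts in proliferating cells and 3 and 11 in neurons, with overlapping groups. At the start of the cluster Pcdha1, Pcdha2 and Pcdha6 had at most 1 count in each library. Of the members at or near 0, Pcdha4, Pcdha6 and Pcdha7 begin within 41, 6 and 9 bases of 3 genes, Gm37013, Gm38666 and Gm38667, that RefSeq carries through to the end of the gamma cluster. Reads in their variable exons therefore belong to 2 annotated genes, and the 3 Gm genes had at most 1 count in any library, so the levels of these 3 alpha members are uncertain.

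**Figure D4:**
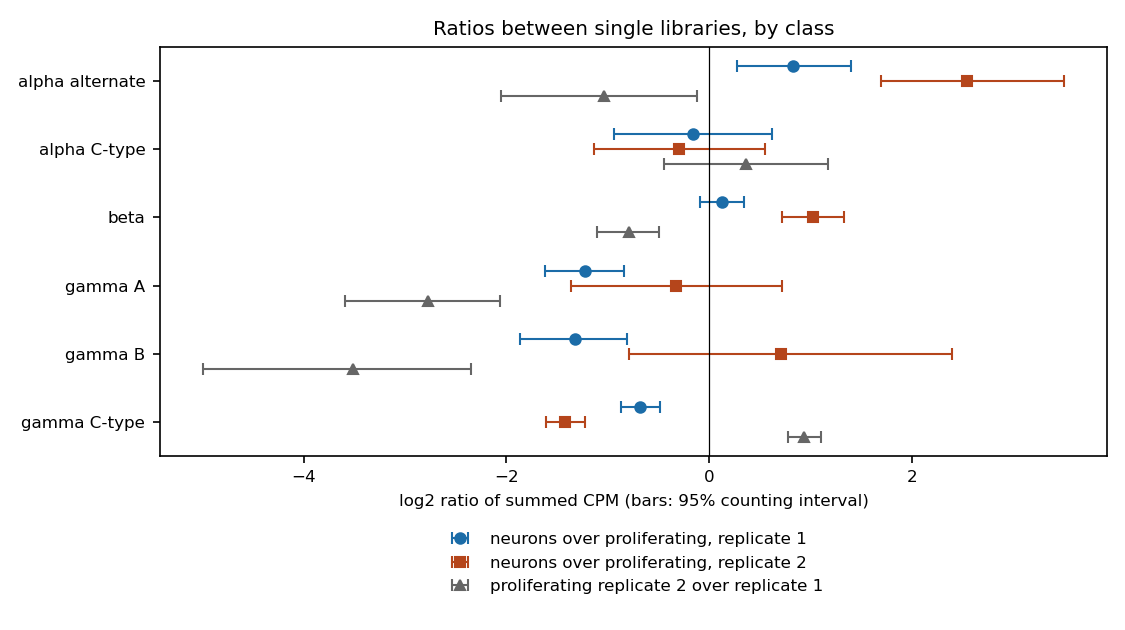
Log2 ratio of summed CPM (x axis) for 6 classes of members (y axis), for neurons over proliferating cells within replicate 1 (circles) and replicate 2 (squares) and for P2 over P1 (triangles), with 95% counting intervals. The alpha alternate ratios are above 0 and the gamma C-type ratios below 0 in both pairs. Pcdhgc3 holds 84.57% to 98.35% of the gamma C-type counts. The gamma A and gamma B genes differ most between the proliferating replicates.

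The beta genes, each a single-exon gene with its own cytoplasmic end, were nearly level in 3 libraries and lower in the fourth. Their summed counts were 349 and 122 in P1 and P2 and 372 and 328 in N1 and N2. This came to 28.6 and 16.5 CPM in P1 and P2 against 31.2 and 33.3 CPM in N1 and N2. The log2 ratio of the group means was 0.52, but it was 0.17 without P2 and 0.97 without P1. The pair ratio was 0.13 (95% counting interval -0.09 to 0.34) for replicate 1 and 1.02 (0.71 to 1.33) for replicate 2. In the replicate 2 pair 19 of 22 beta genes were higher in neurons, against 47.3% of all genes with at least 1 count.

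Position within the cluster went with the level of beta genes. Pcdhb14 to Pcdhb22 together had 312, 103, 301 and 209 counts in P1, P2, N1 and N2, and Pcdhb1 to Pcdhb13 had 37, 19, 71 and 119 in the same order. This division was made after the values were seen. The 9 distal genes overlapped between the groups, with sums of 25.6 and 13.9 CPM in proliferating cells and 25.2 and 21.2 CPM in neurons. The 13 proximal genes did not overlap, at 3.03 and 2.56 CPM in proliferating cells and 5.96 and 12.1 CPM in neurons, and 9 of them were higher in both neuron libraries, against 13.5% of all genes with at least 1 count. Since the division was chosen on these values, nothing is read from that count. Pcdhb5 had 2 counts in each proliferating library and 9 and 24 in neurons. Pcdhb10, the 1 tested gene of the 13, had 8 and 7 counts in proliferating cells and 18 and 18 in neurons, a log2 fold change of 1.07 ± 0.78 (SE) whose adjusted p-value in edgeR was 0.9998. Pcdhb16 had the most counts of the cluster, 66 and 13 in P1 and P2 and 62 and 52 in N1 and N2. It was low in P2 only. Its log2 fold change of 0.53 (SE 0.63) became -0.03 without that library. Pcdhb17 had 48, 16, 33 and 35 counts and Pcdhb19 had 46, 12, 45 and 33, in the same order. Both were also lowest in P2 in CPM, Pcdhb17 at 2.16 against 2.77 in N1. Pcdhb14 and Pcdhb20 were not low there, with 19 and 20, and 23 and 20, counts in P1 and P2. Scaled for library size, each was highest in P2, at 2.70 CPM. Beta genes and the variable exons of the other clusters resemble one another in sequence, and the counting rule for reads that match several places is not given in the sources used here, so single members are less certain than sums.

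The order of members within a cluster was compared between libraries on counts per kilobase of variable exon. Over the 21 beta genes with any count, Spearman's rho between pairs of libraries was 0.673 to 0.829. For 12 alpha genes it was 0.483 to 0.869, and for the 22 gamma genes 0.173 to 0.743. These values are across genes of the same libraries, which share annotation and sequence, and are descriptions only. For the gamma cluster the lowest values were those of N1 with the proliferating libraries, 0.184 and 0.173. In P2, 9 gamma A and B genes stood at 0 beside 654 counts of Pcdhgc3. In N1 all 19 had 4 to 10 counts beside 296 of Pcdhgc3. The order of genes at such low and similar counts is limited by counting error. Nothing is therefore read from these low values of rho. How reads in the shared exons were counted is not given in the sources used here, and their part in these counts was not tested. The constant exons have 2860 bases in the alpha and 2119 bases in the gamma cluster in GENCODE M21. The lengths used in the deposited RPKM include them. If reads in these exons were not counted, RPKM understates alpha and gamma genes against beta genes. If such reads were counted, levels per kilobase of variable exon overstate alpha and gamma genes instead.

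Pcdhac2, Pcdhb1, Pcdhgc4 and Pcdhgc5 are known to lack the conserved promoter element. Their sum was 4.18 and 4.72 CPM in P1 and P2 and 6.63 and 2.34 CPM in N1 and N2, so the groups overlapped. For the 53 other members without Pcdhgc3 the sums were 57.7 and 21.5 CPM in proliferating cells and 48.2 and 47.8 CPM in neurons, which also overlapped. The pair log2 ratios of those 53 genes had opposite signs, -0.26 (95% counting interval -0.42 to -0.10) for replicate 1 and 1.16 (0.89 to 1.42) for replicate 2. The ratio of the group means was 0.28, and -0.26 without P2. No sequences of these promoters are given here.

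Of 18 chromatin regulators of the clusters and of looping, all 18 were tested and 0 were called by edgeR in either direction, with 0 at an unadjusted p-value under 0.05 and 14 positive and 4 negative log2 fold changes. Their median was 0.42, against 0.024 over all tested genes. It was -0.02 with library size alone and -0.0024 without P2, each with 9 positive and 9 negative. Both neuron libraries were above both proliferating libraries for 2 of the 18, Rad21 and Chd7, and below them for 2, Dnmt1 and Dnmt3b, against 13.5% and 10.9% of all genes with at least 1 count. Chd7, the remodeller of the study's title, stood at 106.9 and 100.7 CPM in P1 and P2 and 130.8 and 122.1 CPM in N1 and N2, with a log2 fold change of 0.28 that was not called. Ctcf, which encodes the factor bound at the promoters, had 205 and 102 counts in P1 and P2 and 243 and 151 in N1 and N2, and its CPM values overlapped. The summed level of the 18 was 894 and 435 CPM in proliferating cells and 907 and 757 CPM in neurons. As with the beta genes, P2 was the low library. Stag2, a cohesin subunit, had 718 and 63 counts in P1 and P2 and 790 and 487 in N1 and N2, a log2 fold change of 0.78 ± 0.81 (SE), and -0.0052 without P2. Smchd1, which encodes a repressor of the clusters, had 628 and 77 counts against 558 and 390, a log2 fold change of 0.48 ± 0.72 (SE), and -0.23 without P2. Dnmt3b, the methyltransferase that acts on alternate promoters in the embryo, was low throughout, with 20 and 17 counts in proliferating cells and 12 and 12 in neurons. Both of its neuron levels were lower, at 1.007 and 1.22 against 1.64 and 2.29 CPM, with a log2 fold change of -0.81 ± 0.70 (SE), and -0.54 without P2.

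**Figure D5:**
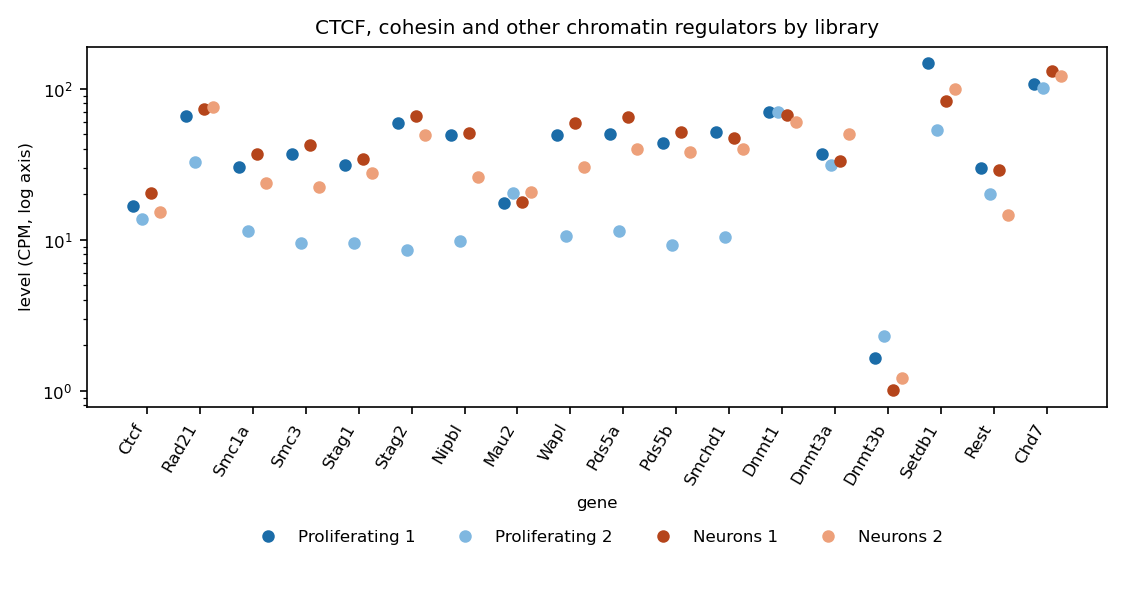
Level in CPM (y axis, log scale) of 18 chromatin regulators (x axis) in the 4 libraries (points). P2 is the lowest of the 4 points for most cohesin genes and for Smchd1, and both neuron points lie below both proliferating points for Dnmt3b.

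Of 11 genes for protein processing and signalling partners of the protocadherins, 9 were tested and 0 were called by edgeR, with a median log2 fold change of 0.021, 5 positive and 4 negative, and 0 at an unadjusted p-value under 0.05. Scaled by library size alone, all 9 were negative, with a median of -0.401. Adam10, whose protease sheds the extracellular domain, had 390 and 86 counts in P1 and P2 and 314 and 254 in N1 and N2. Fyn, a Src family kinase, had 386 and 443 counts against 398 and 281, a log2 fold change of -0.56 ± 0.50 (SE), and -0.012 without P2. The receptor Ret and the kinase Ptk2b had at most 6 counts in any library. Of 5 neighbours of the clusters 4 were tested and 0 were called, with 0 at an unadjusted p-value under 0.05. Taf7, a general transcription factor gene between the beta and gamma clusters, had 87 and 28 counts in proliferating cells and 101 and 39 in neurons. Its level was 7.13 and 3.78 CPM in P1 and P2 and 8.47 and 3.965 CPM in N1 and N2, lower in replicate 2 of each group. Diaph1, which follows the gamma cluster, had 228 and 199 counts in proliferating cells and 218 and 125 in neurons, with a log2 fold change of -0.55 ± 0.48 (SE), and -0.25 without P2. Its level was 18.7 and 26.9 CPM in proliferating and 18.3 and 12.7 CPM in neuron libraries. The level of the gamma A and B genes, which Pcdhgc3, Pcdhgc4 and Pcdhgc5 separate from Diaph1, differed 8.05-fold between the proliferating replicates.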

How the data were processed

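RNA was sequenced after ribosomal RNA depletion, per the labels' protocols. For every library the authors deposited 2 tables, unnormalized gene counts and RPKM. The submitters' processing notes name mm10, HISAT2, SAMtools, featureCounts, DESeq2 and deepTools 3.4.3 without their roles. Annotation, use of strand and treatment of reads with several matches are not given in the sources used here.

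Groups and replicate numbers come from the titles. Counts were tested in edgeR 4.0.16 (R 4.3.3) with TMM factors, filterByExpr (minimum count 10, minimum total 15), glmQLFit and glmQLFTest, group as the single term, over 12783 genes, two-sided with Benjamini-Hochberg adjustment at 0.05. With 2 against 2 libraries an exact permutation test of a single value cannot go below 0.333, so none was run. The set 2 titles were taken to pair same-numbered libraries, whose deviations from group means correlated at r = 0.33 across genes. The replicate block was an alternative, as were RLE, library size alone, no 18S row, other filters, DESeq2 1.42.0, limma 3.58.1 on log2 values of RPKM plus 1 or 0.1, and leaving out each library. The fit was tested on simulated data.

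Sums have exact Poisson intervals and ratios of sums exact binomial ones, at 95%. These intervals take each count as a separate read and would be too narrow if reads were counted for several genes. Whether any were is not given in the sources used here. Variable exon length is the length implied by the deposited RPKM minus bases shared by most genes of a cluster in GENCODE M21. Any member could be named. All 4 values were given for each cluster's 3 members with the most counts, C-type genes and genes with an unadjusted p-value under 0.05, and for others chosen after their values were seen. Members and lists were chosen with earlier results of these data known.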

Additional observations from a re-analysis of the deposited data

How the results depend on the processing

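Leaving out the member with the most counts changed the summed log2 ratio of neurons to proliferating cells to 1.58 for alpha and 1.13 for its C-type genes (both without Pcdhac2), 0.25 for all members, -0.75 for gamma and 0.57 for the gamma C-type genes (these 3 without Pcdhgc3). The sign changed for the alpha C-type genes (from -0.24), all members (from -0.44) and the gamma C-type genes (from -1.12). The cause was not tested. Directions were kept under the other scalings, the RPKM sums and the mean of the pair ratios (replicate block). This held for the ratios of the 3 clusters, alpha alternate, alpha C-type, gamma C-type, gamma A and B and all members. Their sizes moved, though. With library size alone and with RPKM, beta fell from 0.52 to 0.079 and 0.10, and alpha from 0.93 to 0.51 and 0.54. Gamma went from -1.11 to -1.30 with each. The ratio of all members moved to -0.71 with library size alone and -0.66 with RPKM. The 53 members with the conserved element and without Pcdhgc3 turned from 0.28 to -0.24 with library size alone and -0.19 with RPKM. With 1 library left out they ran from 0.62 to 1.19 for alpha, 0.17 to 0.97 for beta, -1.28 to -0.91 for gamma, -1.51 to -0.58 for gamma C-type, 1.20 to 2.24 for alpha alternate, -0.41 to -0.042 for alpha C-type, -0.49 to -0.39 for all members, -0.26 to 1.16 for the 53 and -2.16 to 1.13 for gamma A and B.

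The count of members called was 0 in each direction under every alternative run. The count of all genes called, 0 in each direction, became 41 higher and 122 lower without a gene filter (of 25859 genes) and 12 higher and 47 lower with DESeq2, with 2 lower for library size alone, 1 lower for log2(RPKM + 1), 2 lower for log2(RPKM + 0.1) and 3 lower with the replicate block. Leaving out 1 library gave 3 to 33 higher and 11 to 90 lower, where the lone library of a group is assumed to vary like the others. The replicate block changed no call of a member. With library size alone the median gene moved by -0.29 and Smchd1 became -0.10. With 1 library left out, fold changes of both signs were found for Pcdhgc4 (-1.44 to 0.61), Pcdha10 (-0.26 to 1.502), Pcdhb16 (-0.026 to 1.54), Smchd1 (-0.23 to 2.02) and Stag2 (-0.0052 to 2.74). Members with under 10 counts per library are limited by counting error.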
